A study of Homo sapiens with 2 samples.

Results

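The ZNF genes carry a number in place of a name, and most encode proteins with C2H2 zinc fingers, short loops that fold around a zinc ion. Members were chosen by level, as the symbols made of ZNF and a number whose mean over both libraries was at least 2 FPKM, a measure of sequenced fragments that allows for gene length and sequencing depth. Of 484 such symbols in the table, 271 were kept, 141 were above 0 with a lower mean, and 72 were listed at 0 in both libraries. The table holds 40205 gene symbols in all, of which 10048 had a mean of at least 2 FPKM. RNA was sequenced from RKO, a human cell line established from a colorectal carcinoma, 2 days after the cells had received either control siRNA or siRNA directed at hnRNPK, which binds RNA at runs of cytosine. No genotype other than the siRNA target separates the groups in the titles and the protocol, although the genotype label of the hnRNPK library is worded hnRNPK-/-. With 1 library in each group, differences could not be checked against replicates, so none was tested and no p-value was computed.

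In a C2H2 finger, a pair of cysteines and a pair of histidines hold the zinc ion, and residues of its helix contact DNA or RNA. Fingers in a row are joined by a short conserved linker, and the order of the fingers sets the sequence a protein binds. Many human ZNF proteins also carry a Kruppel-associated box (KRAB), which binds the corepressor TRIM28 and through it brings histone methylation to the bound site. These KRAB proteins are best known for silencing transposable elements, and their genes lie in large clusters on chromosome 19. Other ZNF proteins lack KRAB and work in ribosome assembly, splicing, chromatin complexes or transcription.

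The repeated unit is shown first with 1 finger and its linker from the member with the lowest ratio, ZNF358, and from ZNF616, which had the highest ratio among members with KRAB. The stretches lie at chr19:7520035-7520118 on the plus strand and at chr19:52116270-52116353 on the minus strand of GRCh38, in coding exons, and were read from GENCODE 29. Capitals mark the codons of the cysteines and histidines that hold the zinc ion.
ZNF358: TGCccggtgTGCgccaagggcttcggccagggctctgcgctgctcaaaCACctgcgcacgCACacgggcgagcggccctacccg
ZNF616: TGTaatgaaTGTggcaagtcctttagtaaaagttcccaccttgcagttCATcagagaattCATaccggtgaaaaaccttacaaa
The search for fingers in translated GENCODE transcripts found 9 of them in ZNF358 and 21 in ZNF616. Fingers of related genes can be nearly the same letter for letter, which matters where short reads are assigned to genes. A finger of ZNF417 at chr19:57909303-57909386 on the minus strand and one of ZNF587 at chr19:57859304-57859387 on the plus strand differ at 2 of 84 bases, which stand in capitals.
ZNF417: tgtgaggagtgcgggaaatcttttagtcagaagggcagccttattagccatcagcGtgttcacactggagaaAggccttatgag
ZNF587: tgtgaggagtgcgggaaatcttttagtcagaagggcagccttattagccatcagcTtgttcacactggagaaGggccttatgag
Of the members with a GENCODE transcript, 113 had no word of 50 bases in common with another gene, 35 had at least 10% of their words in common with one or more, and 17 at least 20%. ZNF320 shared 99.5% of its words and ZNF23 shared 98.1%. Values of such members are uncertain, because the sources used here do not give how reads matching several genes were counted.

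Promoter letters are shown for 4 members, the pair with the lowest and the pair with the highest ratios among members whose promoter held CCGGAAG, the core word bound by ETS family factors. Each run covers 250 bases before to 50 after the RefSeq start on GRCh38.p14, and capitals mark the word on either strand. ZNF124 was read from chr1:247171971-247172270 on the minus strand and ZNF740 from chr12:53180472-53180771 on the plus strand. ZNF616 was read from chr19:52139889-52140188 on the minus strand and ZNF267 from chr16:31873557-31873856 on the plus strand.
ZNF124: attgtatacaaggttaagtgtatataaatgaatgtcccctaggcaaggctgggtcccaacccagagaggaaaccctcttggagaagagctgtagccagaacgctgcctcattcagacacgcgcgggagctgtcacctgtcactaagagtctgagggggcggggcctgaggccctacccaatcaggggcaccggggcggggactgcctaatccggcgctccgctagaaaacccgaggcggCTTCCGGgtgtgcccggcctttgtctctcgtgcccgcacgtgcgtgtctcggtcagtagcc
ZNF740: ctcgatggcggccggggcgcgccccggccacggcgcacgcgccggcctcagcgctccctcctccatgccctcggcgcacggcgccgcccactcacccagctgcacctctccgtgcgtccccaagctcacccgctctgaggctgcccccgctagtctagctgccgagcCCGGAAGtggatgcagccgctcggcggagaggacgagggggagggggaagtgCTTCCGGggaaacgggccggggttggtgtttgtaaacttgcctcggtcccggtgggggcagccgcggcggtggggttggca
ZNF616: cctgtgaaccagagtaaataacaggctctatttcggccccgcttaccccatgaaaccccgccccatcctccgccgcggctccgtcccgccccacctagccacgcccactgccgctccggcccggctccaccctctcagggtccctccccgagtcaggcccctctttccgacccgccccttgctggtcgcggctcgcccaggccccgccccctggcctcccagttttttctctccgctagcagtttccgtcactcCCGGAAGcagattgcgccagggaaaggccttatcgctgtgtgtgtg
ZNF267: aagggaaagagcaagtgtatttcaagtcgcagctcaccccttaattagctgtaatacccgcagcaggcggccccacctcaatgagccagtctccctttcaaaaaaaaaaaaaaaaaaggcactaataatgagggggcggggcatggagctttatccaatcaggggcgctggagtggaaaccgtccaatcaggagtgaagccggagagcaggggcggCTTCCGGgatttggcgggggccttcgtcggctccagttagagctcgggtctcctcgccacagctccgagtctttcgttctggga
The word CCGGAAG occurred in 99 of the 233 members matched to the RefSeq promoter table, or 42.5%, against 22.3% of 7195 genes with a mean of at least 2 FPKM and 10.7% of all 27305 promoters. This word was singled out after the shares of 8 words had been seen. CCAAT, the word bound by NFY, occurred in 48.1% of members, 37.7% of expressed genes and 35.7% of all promoters. ACTACAATT, the word bound by ZNF143 with THAP11, occurred in 6 members, or 2.58%, and in 0.806% of expressed genes and 0.37% of all promoters. GGGCGG, bound by SP and KLF factors, was found in 64.4% of members and 72.7% of expressed genes, and TATAAA in 4.72% and 4.77%. TGACGTCA, bound by CREB and ATF factors, occurred in 5.58% and 3.63%, GCGCATGCG, bound by NRF1, in 3.43% and 4.31%, and AAGATGGCG, bound by YY1, in 3.86% and 4.92%. All words were searched on both strands, and none holds another. The median number of CpG dinucleotides in the 300 bases was 22 in members, 27 in expressed genes and 14 in all promoters. These matches describe letters and not binding.

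HNRNPK, the siRNA target, stood at 338.0 FPKM in control siRNA and 61.5 in hnRNPK siRNA, so that 18.2% was left. Its FPKM ratio was 0.182, with an exact 95% counting interval of 0.174 to 0.190. Whole reads could be worked out from the FPKM values, and the smallest library totals that fit were 25729856 for control siRNA and 28550823 for hnRNPK siRNA. Members had a median of 487 and 502 reads. Intervals given here come from these reads by the Clopper-Pearson method and cover counting error only, not the variation between cultures. Reads that copy 1 molecule would make them too narrow. True reads that are a multiple of the smallest ones would make them too wide. Of 10 colorectal epithelial markers, 4 had a mean of at least 2 FPKM (EPCAM, KRT8, KRT18 and CDX2) and 6 were listed at 0 (CDH1, KRT19, KRT20, VIL1, CDX1 and LGALS4), and their summed level was 93.3 FPKM in control siRNA and 113 in hnRNPK siRNA. Summed over 5 markers each, leukocyte markers reached at most 0.0295 FPKM and fibroblast and endothelial markers at most 0.0434, with 4 and 3 of them at 0. In bulk RNA, fewer cells with a transcript and less of it per cell cannot be told apart.

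The members were mostly low in level. In control siRNA they ran from 1.77 to 108.5 FPKM with a median of 5.61, and in hnRNPK siRNA from 1.504 to 93.6 with a median of 5.18. The median over all genes kept was 10.9 and 9.40 FPKM. Fewer than 10 FPKM was seen for 209 members in control siRNA and 217 in hnRNPK siRNA, and at least 50 FPKM for 7 in each. The order of levels was largely shared by the libraries, with a Spearman correlation of 0.929 over 271 members, which share gene length and sequence in both. The minimum was met in both libraries by 259 members, in control siRNA alone by 11 and in hnRNPK siRNA alone by 1. ZNF782, with 2.36 and 1.66 FPKM, ZNF441 with 2.40 and 1.75 and ZNF571 with 2.16 and 2.01 lay just inside. ZNF564 with 1.90 and 2.05, ZNF578 with 2.18 and 1.74 and ZNF668 with 1.84 and 2.07 lay just outside.

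**Figure D1:**
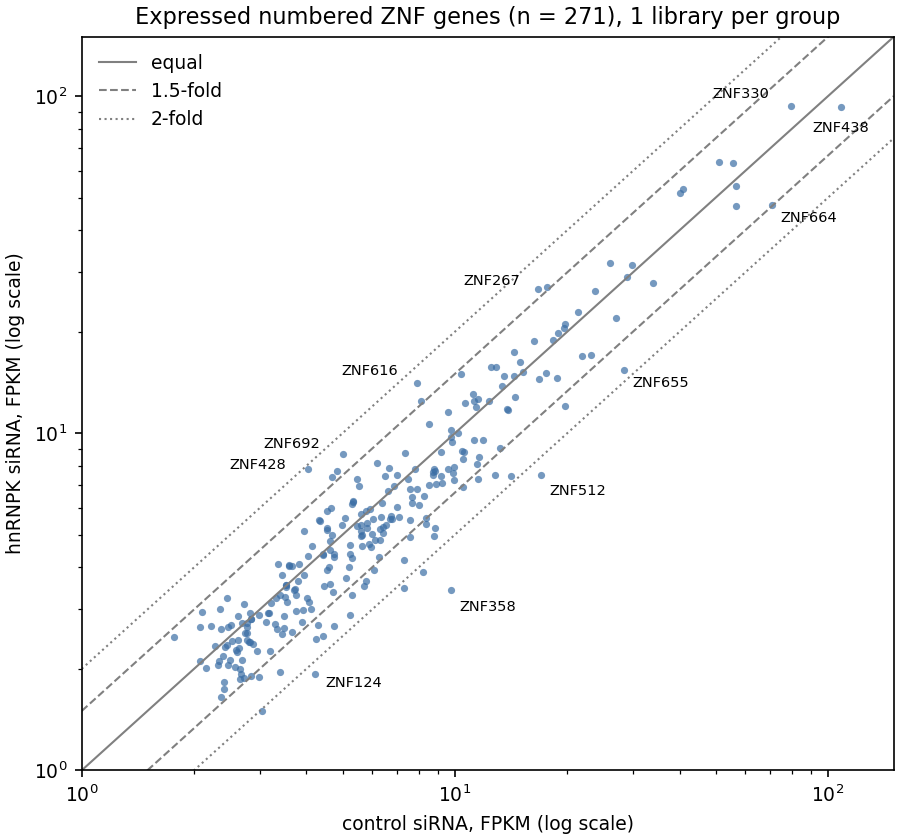
FPKM of the 271 expressed numbered ZNF genes in hnRNPK siRNA against control siRNA, both on log axes, 1 point per gene and 1 library per group. The lines mark equal levels and 1.5-fold and 2-fold ratios. Of the 271 points, 6 lie below the lower 2-fold line, with ZNF358 farthest from it, and 0 above the upper one.

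The highest levels belonged to members without a KRAB box. ZNF438 had 108.5 FPKM in control siRNA and 92.6 in hnRNPK siRNA, a ratio of 0.853 (0.829 to 0.878). ZNF330, a nucleolar protein, had 79.8 and 93.6 (ratio 1.17, 1.12 to 1.22). ZNF664 had 70.9 and 47.5, a ratio of 0.670 (0.639 to 0.703), the lowest of these 10. ZNF622, an assembly factor of the large ribosomal subunit, had 56.8 and 54.0 FPKM. ZNF146, which consists almost wholly of fingers, had 56.6 and 47.2 (ratio 0.834), and ZNF259, the zinc finger protein ZPR1, had 55.5 and 63.5 (ratio 1.14). For ZNF622 the interval of 0.878 to 1.03 included no change with the smallest reads that fit. ZNF326, which couples transcription to splicing in the DBIRD complex, had 51.0 and 63.8 (ratio 1.25, 1.198 to 1.31). ZNF207, a partner of BUB3 at the kinetochore, had 40.8 and 53.2 (ratio 1.30, 1.24 to 1.37) and shared 20.7% of its words with other genes. ZNF277 had 40.1 and 51.5 (ratio 1.29) and ZNF638 had 34.0 and 27.9 (ratio 0.820). These 10 thus lay on both sides, with 5 higher and 5 lower in hnRNPK siRNA.

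Over all members, log2 ratios of FPKM + 1 in hnRNPK siRNA over control siRNA had a median of -0.12, with quartiles at -0.29 and 0.08 and a range of -1.28 to 0.80. The scale of FPKM + 1 understates the change of low genes. Over the 10048 genes the median was -0.15, the quartiles -0.41 and 0.12 and the range -2.51 to 2.80, so relative to all genes the members' median was 0.02. The SD over genes was 0.309 for members and 0.444 for all genes. Below the median of all genes lay 125 members, or 46.1%.

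Members 2-fold lower in hnRNPK siRNA on this scale numbered 2, or 0.738%, beside 3.64% of all genes, and 0 members were 2-fold higher, beside 0.756%. At 1.5-fold, 18 members were lower, or 6.64%, beside 14.8% of all genes, and 5 were higher, or 1.85%, beside 3.61%. All of these shares lay below those over all genes, and the difference was not tested. By FPKM alone, 6 members were 2-fold lower, beside 6.19% of all genes, and 0 higher, beside 1.12%. At 1.5-fold by FPKM alone, 28 were lower and 8 higher, beside 18.9% and 4.63%. The exact 95% counting interval lay wholly below 1 for 114 of 271 members, beside 5020 of 10048 genes (50%). It lay wholly above 1 for 46 members, beside 2270 genes (22.6%), and included 1 for 111, beside 2758. Members had fewer reads, which widens intervals, with a median of 487 in control siRNA beside 794 over all genes.

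**Figure D2:**
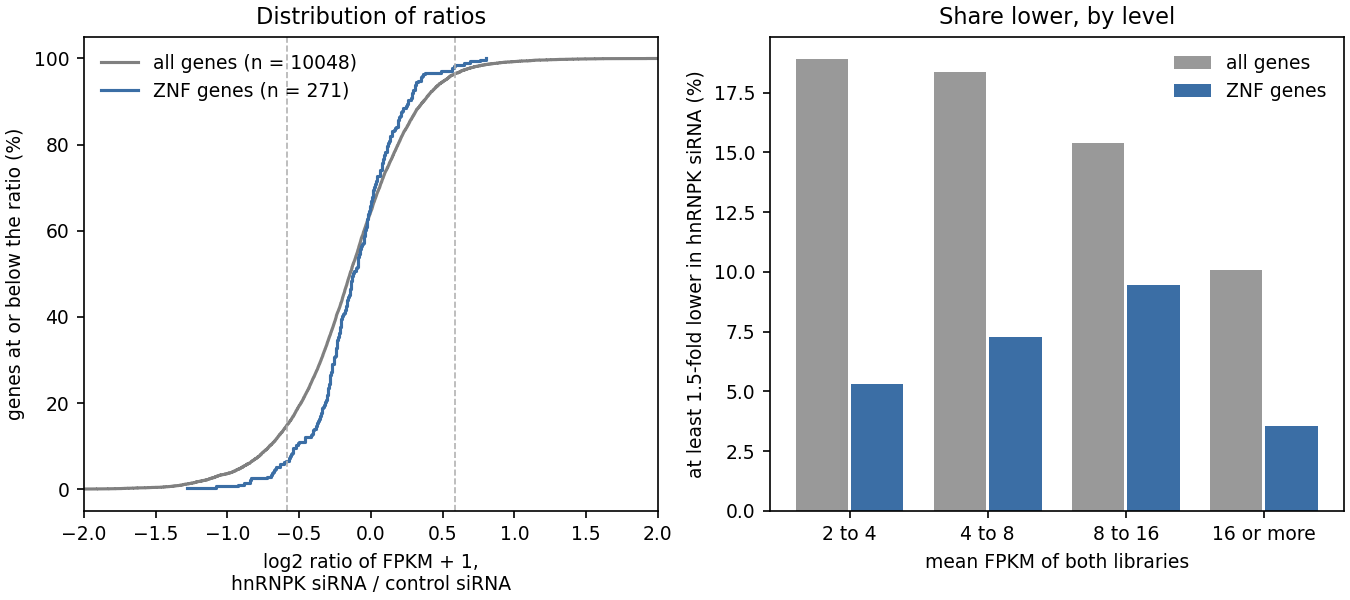
Left, cumulative share in percent of the 271 ZNF genes and of all 10048 genes at or below a log2 ratio of FPKM + 1, hnRNPK siRNA over control siRNA, with dashed lines at 1.5-fold. Right, bars for the percent at least 1.5-fold lower by range of mean FPKM, where the ZNF genes lie at 5.32%, 7.29%, 9.43% and 3.57% and all genes at 18.9%, 18.4%, 15.4% and 10.1%.

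The smaller spread of members than of all genes was seen in each range of level, and the related families described at the end had small spreads too. Among members with a mean of 2 to 4 FPKM, 5 of 94 were 1.5-fold lower, or 5.32%, beside 18.9% of all genes in that range, and their SD was 0.228 beside 0.429. From 4 to 8 FPKM, 7 of 96 were lower, or 7.29% beside 18.4%. From 8 to 16 FPKM, 5 of 53 were lower, or 9.43% beside 15.4%. Members 1.5-fold higher numbered 0, 2 and 1 in these 3 ranges, beside 2.6%, 3.21% and 3.07% of all genes. At 16 FPKM or more, 1 of 28 was lower, or 3.57% beside 10.1%, and 2 were higher, or 7.14% beside 4.74%. In every range the SD over members was below that over all genes. The medians of members were -0.10, -0.15, -0.17 and 0.06 from the lowest to the highest range, and those of all genes -0.23, -0.22, -0.16 and -0.03.

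The lowest ratios came from members with and without KRAB. ZNF358 stood at 9.75 FPKM in control siRNA and 3.43 in hnRNPK siRNA, from 490 and 191 reads, a ratio of 0.351 (0.296 to 0.416), or 2.85-fold lower. ZNF512 stood at 17.0 and 7.54, a ratio of 0.443 (0.406 to 0.482), or 2.26-fold lower. Neither has a KRAB box in its longest coding sequence, and these are the members past 2-fold on the FPKM + 1 scale. ZNF358 shared 19.5% of its words with the GENCODE gene AC008878.1 and ZNF512 35.7% with AC074091.1, so part of their reads may belong elsewhere. How these GENCODE genes relate to the members was not examined.

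ZNF124 stood at 4.22 and 1.93 FPKM, a ratio of 0.456 (0.364 to 0.568). ZNF248 stood at 8.22 and 3.86 (ratio 0.470, 0.424 to 0.521), and ZNF740 at 7.29 and 3.48 (ratio 0.478, 0.424 to 0.538). These 3 shared no word with another gene, and each was past 2-fold by FPKM alone. ZNF417 stood at 3.03 and 1.504 (ratio 0.496, 0.416 to 0.591) and shared 40.1% of its words, mostly with ZNF587, whose finger is printed above. ZNF587, named for that likeness, stood at 3.75 and 2.98 (ratio 0.795, 0.710 to 0.889). ZNF417 reached the minimum in control siRNA alone, so its direction was fixed by the choice.

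ZNF672 stood at 14.1 and 7.44 FPKM (ratio 0.527, 0.429 to 0.644 with the smallest reads that fit). If its true reads are a multiple of those, its interval is narrower. ZNF655, known as a partner of VAV1, stood at 28.3 and 15.4 (ratio 0.543, 0.515 to 0.572), from 3694 and 2225 reads. Its level was the highest among the 12 lowest ratios. ZNF572 had a ratio of 0.553, ZNF580 of 0.562, ZNF107 of 0.563 and ZNF468 of 0.568. These 12 were named for their low ratios, so their direction is a description. The other 6 members past 1.5-fold, named after their values were seen, were ZNF506 (7.31 and 4.197 FPKM), ZNF584 (4.25 and 2.45), ZNF770 (12.8 and 7.54), ZNF12 (8.87 and 5.24), ZNF251 (19.8 and 12.1) and ZNF367 (11.6 and 7.33). Of the 18, 9 matched the KRAB box pattern used here, as did 150 of the 270 members with a coding transcript in GENCODE.

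The minimum itself bears on the low members. The 11 that reached 2 FPKM in control siRNA alone had to be lower in hnRNPK siRNA, and the 1 that reached it in hnRNPK siRNA alone, ZNF670 at 1.77 and 2.48, had to be higher. Those 11 include ZNF124, ZNF417, ZNF445, ZNF649, ZNF782 and ZNF441. Their direction therefore carries no information beyond the choice.

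The highest ratios also came from members with and without KRAB. Past 1.5-fold, 5 members were higher and 18 lower without scaling. After centring on the median of all genes these were 9 and 7, and after upper quartile scaling 10 and 7. All genes shifted in the same way, from 3.61% higher and 14.8% lower without scaling. Their shares were 7.21% and 9.16% after centring and 9.35% and 8.31% after upper quartile scaling. ZNF616 stood at 7.91 FPKM in control siRNA and 14.1 in hnRNPK siRNA, from 918 and 1813 reads, a ratio of 1.78 (1.64 to 1.93). ZNF267, another KRAB member, stood at 16.7 and 26.8, a ratio of 1.61 (1.51 to 1.71). ZNF281, a GC-box factor, stood at 17.7 and 27.1, a ratio of 1.53 (1.45 to 1.61). None of these shared more than 0.842% of its words with other genes. ZNF692, which binds the AICAR response element, stood at 5.003 and 8.69, a ratio of 1.74 (1.51 to 1.996). ZNF428 had the highest ratio, 1.93, at 4.05 and 7.82 FPKM, but 42 and 90 reads were recovered. These are the smallest that fit, and the interval from them ran from 1.32 to 2.86. For ZNF428 the smallest reads fit a length too short for a protein of 218 residues. Its true reads may therefore be a multiple and its interval narrower. These 5 are the members past 1.5-fold on the FPKM + 1 scale.

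ZNF219, which works with SOX9 in mouse cartilage, stood at 4.85 and 7.72 FPKM (ratio 1.59, 1.40 to 1.81). ZNF484 stood at 4.70 and 7.41 (ratio 1.58) and ZNF485 at 8.13 and 12.5 (ratio 1.54). By FPKM alone these 3 were past 1.5-fold as well. ZNF721 had a ratio of 1.45, ZNF689 of 1.41, ZNF670 of 1.40 and ZNF239 of 1.34. These 12 were named for their high ratios, and ZNF670 reached the minimum in hnRNPK siRNA alone.

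**Figure D3:**
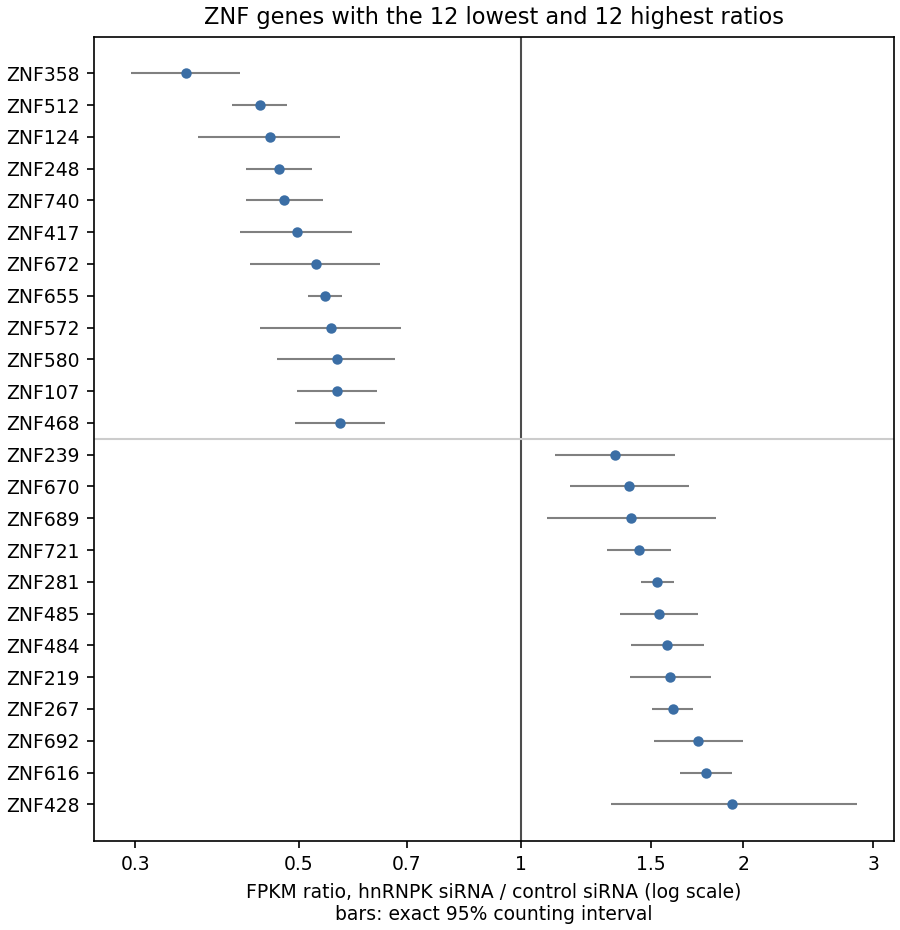
FPKM ratio, hnRNPK siRNA over control siRNA on a log axis, for the 12 lowest and 12 highest of the 271 ZNF genes, with bars for the exact 95% counting interval from the reads of 1 library per group. ZNF358 is lowest at 0.351 and ZNF428 highest at 1.93, with the widest bar among the higher genes. Bars come from the smallest reads that fit.

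Members were next grouped by role. Of 7 members that act on RNA, ribosomes or splicing, 0 were past 1.5-fold, beside 14.8% of all genes lower and 3.61% higher, which says little for so short a list. Their ratios ran from 0.771 to 1.25 with a median log2 ratio of -0.07. ZNF593, an assembly factor of the large ribosomal subunit, stood at 23.8 and 26.4 FPKM. ZNF598, the ubiquitin ligase that marks collided ribosomes, stood at 16.8 and 14.5, and ZNF830, which associates with the spliceosome, at 28.9 and 29.02. ZNF346, a binder of double-stranded RNA, stood at 4.63 and 3.58 (ratio 0.771, 0.662 to 0.899), the lowest of the list. The ratio of ZNF593 was 1.11 (0.972 to 1.27) and that of ZNF830 was 1.003 (0.928 to 1.08), so neither interval excluded 1.

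Of 15 members of chromatin complexes or general transcription, 14 passed the minimum and ZNF532, a partner of ZMYND8, was listed at 0 in both libraries. All 14 lay above the all-gene median, while 46.1% of all members lay below it, and the median log2 ratio of the 14 was 0.04. The list was chosen with earlier results of these data known, so this is a description and was not tested. ZNF281 was the member past 1.5-fold, 1 of 14 higher, beside 3.61% of all genes. ZNF143, an activator of small nuclear RNA genes, stood at 19.6 and 20.5 FPKM, and its paralog ZNF76 at 3.44 and 3.79. ZNF644, a partner of the methyltransferases G9a and GLP, stood at 14.9 and 16.3. The ratios of these 3 were 1.05, 1.10 and 1.09, and each interval included 1 with the smallest reads that fit. For ZNF644 these reads fit a length of 2158 bases, short for a protein of 1327 residues. Its true reads may therefore be a multiple and its interval narrower. ZNF217, a CoREST and CtBP partner, stood at 3.52 and 3.55, ZNF451, a SUMO ligase, at 6.88 and 6.98, and ZNF410, the activator of CHD4, at 12.4 and 12.5. ZNF410 shared 83.5% of its words with other genes. ZNF335, of a histone H3K4 methyltransferase complex, stood at 3.66 and 4.05, and ZNF827, a recruiter of NuRD to telomeres, at 2.46 and 2.67. The remaining 4 were slightly lower, namely ZNF711, a partner of PHF8 (6.39 and 6.195), ZNF148, a GC-box factor (5.804 and 5.399), and the ZMYND8 partners ZNF687 (2.53 and 2.41) and ZNF592 (2.73 and 2.55). When scaled to the median or to the upper quartile of all genes, those 4 and ZNF622 lay above 0, and ZNF598 did so with the upper quartile.

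Of 7 KRAB members with known targets, 5 passed the minimum, and ZNF93 and ZNF568 did not. ZNF445, which guards imprinted regions, stood at 3.39 and 1.96 FPKM (ratio 0.578, 0.520 to 0.643). ZNF649, a repressor of LINE-1, stood at 2.84 and 1.91 (ratio 0.672, 0.550 to 0.820). ZNF91, which represses SVA elements, stood at 4.60 and 4.01 (ratio 0.872, 0.779 to 0.975). ZNF445 and ZNF649 reached the minimum in control siRNA alone, so their direction was fixed by the choice, and the interval of ZNF91 lay below 1, as for 50% of all genes. On the FPKM + 1 scale 0 of the 5 were past 1.5-fold, beside 14.8% of all genes lower and 3.61% higher. ZNF350, a partner of BRCA1, stood at 5.81 and 5.22 and ZNF420, a partner of p53, at 3.74 and 3.44, and both intervals included 1. Scaled to the upper quartile, ZNF91, ZNF350 and ZNF420 lay above 0. The median log2 ratio of the 5 was -0.16, beside -0.15 over all genes.

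The proteins that KRAB members work with were also read, as a list of 24 cofactors, and all of them passed the minimum. TRIM28, the corepressor bound by KRAB, stood at 40.8 FPKM in control siRNA and 51.8 in hnRNPK siRNA, a ratio of 1.27 (1.21 to 1.33). SETDB1, the H3K9 methyltransferase it recruits, stood at 5.34 and 6.13, a ratio of 1.15 (0.989 to 1.33). TRIM28 was thus higher beyond counting error. The interval of SETDB1 included 1 with the smallest reads that fit, and a multiple of those reads would narrow it. These intervals therefore do not set SETDB1 apart from TRIM28. The HP1 proteins, which bind methylated H3K9, went in different directions. CBX5 (HP1 alpha) stood at 10.2 and 4.12, a ratio of 0.404 (0.361 to 0.451). CBX1 (HP1 beta) stood at 118 and 82.6 (ratio 0.702), and CBX3 (HP1 gamma) at 90.5 and 118 (ratio 1.31). On the FPKM + 1 scale, CBX5 was the cofactor past 2-fold and, with DNMT1, one of 2 past 1.5-fold lower. On that scale 0 were past 1.5-fold higher. Over all genes the shares were 3.64% for 2-fold lower, 14.8% for 1.5-fold lower and 3.61% for 1.5-fold higher. These counts therefore do not set the cofactors apart. By FPKM alone, EHMT1 (ratio 0.660) and EHMT2 (0.662) were past 1.5-fold lower as well, beside 18.9% of all genes lower.

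DNMT1, the maintenance DNA methyltransferase, stood at 84.4 and 54.1 FPKM (ratio 0.641), and UHRF1, which recruits it, at 31.3 and 21.1 (ratio 0.672). The H3K9 methyltransferases EHMT1 and EHMT2 had ratios of 0.660 and 0.662, SUV39H2 of 0.686 and SUV39H1 of 0.773. Of the HUSH complex, MPHOSPH8 had a ratio of 0.692, FAM208A (TASOR) of 0.864 and PPHLN1 of 0.925, and its partner MORC2 of 0.792. These 10 all lay below 1, as did most genes, the all-gene median log2 ratio being -0.15. PPHLN1, at -0.11, lay above that median. ATRX had a ratio of 0.742, HDAC1 of 0.795, HDAC2 of 0.933, CHD3 of 0.840, CHD4 of 0.872, ATF7IP of 0.839 and DAXX of 0.989, and SMARCAD1 and MORC3 of 1.05 and 1.07. The list's median log2 ratio was -0.26, and 16 of 24 were lower than the all-gene median, beside 50% of all genes. The difference was not tested. Ratios in the list ran from 0.404 for CBX5, with DNMT1 next at 0.641, to 1.31 for CBX3.

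**Figure D4:**
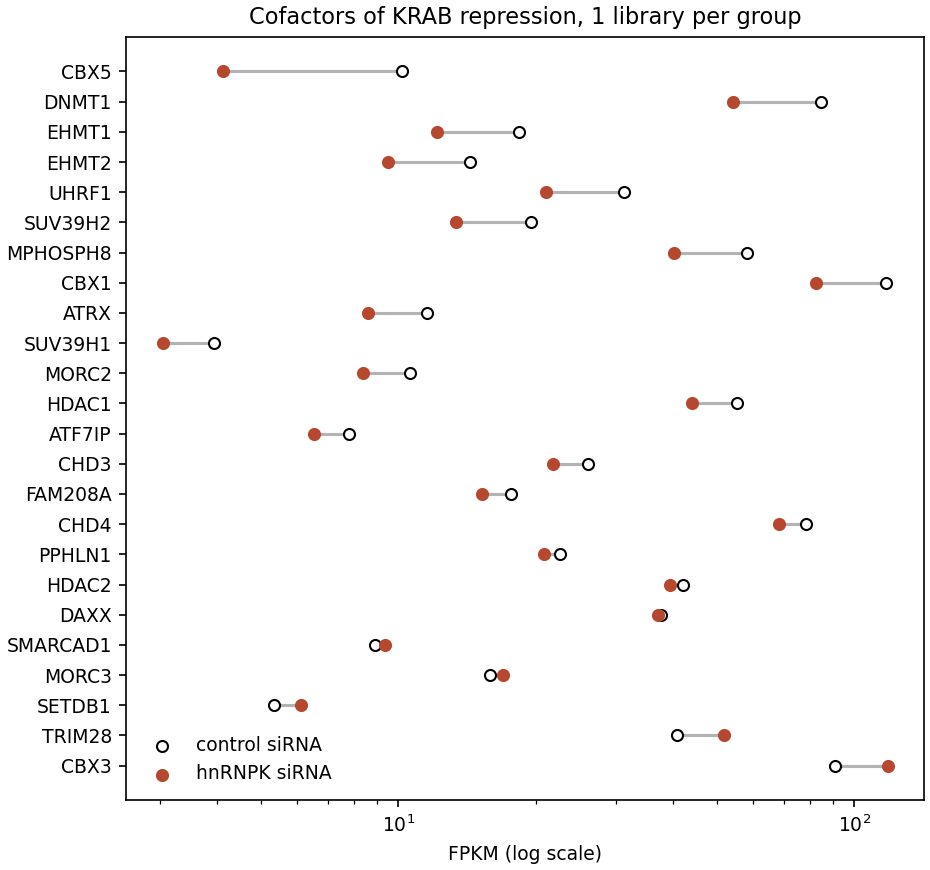
FPKM on a log axis of the 24 KRAB cofactors in control siRNA (open points) and hnRNPK siRNA (filled points), 1 library per group, ordered by ratio. CBX5, at 10.2 and 4.12 FPKM, has the lowest ratio, and CBX3 and TRIM28 have the highest, 1.31 and 1.27.

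By protein class, 150 members matched a fixed KRAB box pattern in their longest coding sequence and 120 did not. Members without a match, counted here as without KRAB, may still hold a box that departs from the pattern. KRAB members had a median log2 ratio of -0.16 and the others of -0.04. At 1.5-fold, 9 KRAB members (6.0%) and 9 others (7.5%) were lower, beside 14.8% of all genes. Higher were 2 KRAB members (1.33%) and 3 others (2.5%), beside 3.61% of all genes. On chromosome 19 lay 115 members, with a median of -0.15, against -0.05 for 156 elsewhere. KRAB members had a median of -0.16 on chromosome 19 (95 genes) and -0.10 elsewhere (55 genes). A SCAN box joins such proteins in pairs, and the 12 members that matched its fixed pattern had a median of -0.16. Their ratios ran from 0.578 for ZNF445 to 1.21 for ZNF18, which was named after its value was seen. These gaps were well inside the quartiles of each class and were not tested.

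**Figure D5:**
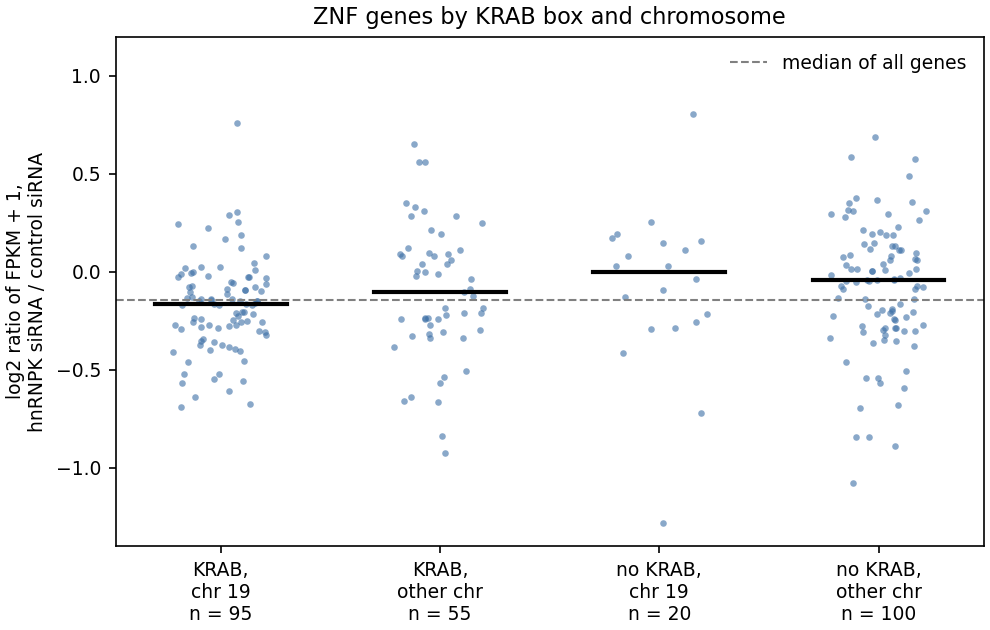
Log2 ratio on the FPKM + 1 scale, 1 point per ZNF gene. Genes are split by a match to the KRAB box pattern and by chromosome 19 or other. A bar marks each median and a dashed line the median of all genes. The medians run from -0.16 to -0.00 and the points of the 4 classes overlap.

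The number of fingers found had a median of 10 and reached 33. Members with 1 to 4 fingers had a median log2 ratio of -0.02, those with 5 to 9 of -0.14, those with 10 to 14 of -0.13 and those with 15 or more of -0.14. Over members that share these libraries, Spearman correlations of the log2 ratio were -0.05 with fingers, 0.08 with GC content, 0.10 with CCC per kilobase and -0.15 with transcript length (270 members each). With the share of words found in other genes it was -0.19. The GC content of the longest coding transcript had a median of 43.3% in members and 47.6% over 8677 expressed genes. Split into 4 groups by GC content, members had median log2 ratios of -0.09, -0.17, -0.16 and 0.02 from the poorest to the richest in GC. Members with CCGGAAG in the promoter had a median of -0.14 (99 genes) and those without it also of -0.14 (134 genes).

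Neighbours in the genome were compared next. Among 79 pairs of members that are next to each other in the gene order, 50 of them on chromosome 19, 35 lay on the same side of the members' median. The Spearman correlation of their log2 ratios was -0.10 over these pairs, which share the libraries and some members, so neighbours were neither clearly alike nor clearly opposed. The following pairs were picked after their values were seen. ZNF672 (-0.84) and ZNF692 (0.69), on chromosome 1, lay 1.53 apart in log2 ratio. ZNF616 (0.76) lies between ZNF841 (-0.22) and ZNF836 (-0.56), and ZNF580 (-0.72) is next to ZNF581 (0.17). ZNF28 (-0.55) and ZNF468 (-0.64) were both lower, and ZNF239 (0.36) and ZNF485 (0.56) both higher.

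Other families with C2H2 fingers were read at the same minimum. The median log2 ratio was -0.17 over 11 ZFP genes, -0.07 over 9 ZSCAN genes, -0.30 over 4 ZKSCAN genes and -0.12 over 22 ZBTB genes. The SD of the log2 ratio was 0.293, 0.241, 0.0616 and 0.254 in the same order, beside 0.309 for members and 0.444 for all genes, so a smaller spread than over all genes was not particular to the numbered ZNF genes. At 1.5-fold, 2 ZFP genes (18.2%), 1 ZSCAN gene (11.1%) and 1 ZBTB gene (4.55%) were lower, beside 14.8% of all genes. None of these 4 families had a gene 1.5-fold higher, beside 3.61% of all genes, a share at which few or none would be seen in sets of this size.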

How the data were processed

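The authors deposited 1 table of FPKM values with 1 column per library. Reads were processed with Bowtie 0.12.2 on hg19, per the submitters' processing notes. Not given in the sources used here are annotation, counter and strandedness. Columns were matched to libraries by their names, less directly for hnRNPK siRNA (SiK) than for control siRNA. Ratios of FPKM values were fractions of whole reads, and whole reads with a whole length were found for 99.98% of 19069 genes above 0 (relative tolerance 5e-14 for a ratio, 1e-05 bases for a length). The smallest reads that fit were used, so true reads may be a common multiple. Ratios used a pseudocount of 1 FPKM and were counted at 2-fold and 1.5-fold. No count model was fitted.

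KRAB, SCAN and fingers were found in translated GENCODE 29 transcripts (longest coding sequence, fingers with gaps of 2, 12 and 3 to 5 residues), because no protein table was used. Fingers with other spacing, boxes of other isoforms and boxes that depart from the fixed patterns are missed. Names were matched to GENCODE for 270 members, and 268 members have the same symbol today. Named are the target, members past 2-fold, the 12 lowest and 12 highest ratios, the 10 highest levels, the role lists, and the 3 genes on either side of the minimum. Members and lists were chosen with earlier results of these data known. Promoter words (those of ZNF143 and YY1 shortened to 9 letters after a first search), shared words, base composition, neighbours and printed sequences were chosen after the files had been read. Alternatives were other pseudocounts, minimums and scalings. Python 3.11.15, numpy 2.4.6, pandas 2.3.3 and scipy 1.17.1 were used, and read recovery was tested on simulated data.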

Additional observations from a re-analysis of the deposited data

How the results depend on the processing

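On 1 library per group the counts depend on the scale. At a pseudocount of 0.1 FPKM, 5 members were 2-fold lower, 28 were 1.5-fold lower and 8 higher. The shares over all genes were 5.82%, 18.4% and 4.47%. With 5 FPKM these were 0, 4 and 0 members, beside 0.846%, 6.02% and 1.86% of all genes. Centring on the median of all genes (-0.15) gave 1, 7 and 9, beside 2.21%, 9.16% and 7.21% of all genes. Upper quartile scaling gave 1, 7 and 10, beside 2.06%, 8.31% and 9.35%. No member was 2-fold higher under these settings, beside 0.239% to 1.49% of all genes. All members 1.5-fold lower under either scaling were among the 18. The share of 1.5-fold calls stayed below that over all genes under both scalings, with 2.58% lower beside 9.16% and 3.32% higher beside 7.21% after centring. The members' median of -0.12 became -0.15 and -0.064 at 0.1 and 5 FPKM, and turned to 0.022 with centring and 0.053 with the upper quartile. In sign, 65 members differed between scalings, 93 were above 0 and 113 below 0 under each. The median was -0.13 with a mean FPKM of at least 1, -0.14 at 5, -0.11 with no minimum, -0.14 with 2 FPKM in control siRNA and -0.091 with 2 FPKM in hnRNPK siRNA. Without the 35 members sharing 10% of their words, added after seeing the data, it was -0.089 and 0 were 2-fold lower. HNRNPK, -2.44, became -2.37 at 5 FPKM, -2.29 with centring and -2.23 with the upper quartile. No paired analysis was possible because each group has 1 library and the labels give no replicate numbers. Few reads were recovered for ZNF428, but they fit a length too short for its protein, so its true reads may be a multiple.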
